A study of Mus musculus with 9 samples.

Results

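Transcripts of 6 genes that decide whether the mitochondrial pathway of apoptosis is set off were followed across a treatment with BET inhibitors. They were the survival genes Bcl2, Bcl2l1, Bcl2l2 and Mcl1, and the effector genes Bax and Bak1. They were taken by symbol from a count table of 43629 genes, and all 6 had a row. Of these, 5 had enough reads to enter the 11002 genes tested, and Bcl2l2 did not. The cells were clone 4242 of an Eµ-Myc lymphoma, a mouse B-cell lymphoma grown in culture in which a Myc transgene is driven by the immunoglobulin heavy chain enhancer. Every group, the control included, came from that single clone and carried the transgene. The groups were DMSO solvent, JQ1 at 1 µM and RG6146 at 2.5 µM, each for 2 h and each with 3 libraries described as biological triplicates. The time was the same and the doses were not. Both compounds block the bromodomains through which BET proteins bind acetylated chromatin.

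BCL2, BCL-XL (from Bcl2l1), BCL-W (from Bcl2l2) and MCL1 hold BAX and BAK in check and bind the BH3-only proteins that would otherwise free or activate them. Once active, BAX and BAK open the outer mitochondrial membrane, cytochrome c leaks out and caspases are switched on. Lymphomas of Eµ-Myc mice are known to depend on MCL1, a protein with a short half-life, and normal B cells use BCL2, BCL-XL and MCL1 at different stages.

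The libraries held 3410161 to 5031717 gene counts. Levels are given as CPM, counts scaled to a fixed library total, after TMM scaling, which adjusts each library for its composition. The kit reads the polyadenylated end of each transcript, so a level is not divided by gene length, and levels of different genes are compared on that per-end scale. Hexim1, a known marker of BET inhibition, lay at 129 to 140 CPM under DMSO, 392 to 400 CPM under JQ1 and 363 to 377 CPM under RG6146. The 10 B cell markers summed to 631 to 714 CPM under DMSO, none was at 0 in all libraries, and 4 of the 9 tested fell after each compound. Under DMSO, Ebf1 alone averaged 283 CPM, while Igll1, Vpreb1 and Pax5 averaged 0.320, 1.94 and 2.93 CPM. The 14 markers of myeloid cells summed to 161, 763 and 354 CPM in DMSO replicates 1, 2 and 3, to 62.5 to 301 CPM under JQ1 and to 92.6 to 134 CPM under RG6146, and 1 of 10 tested rose and 0 fell after each compound. T and NK cell, erythroid, and stromal and endothelial markers reached at most 11.9, 17.9 and 139 CPM, with the stromal marker Dcn at 0 in all 9 libraries.

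On build mm10, Bcl2 (ENSMUSG00000057329) spans bases 106538178 to 106714274 of chromosome 1 on the minus strand. Bcl2l1 (ENSMUSG00000007659) spans 152780668 to 152831728 of chromosome 2, minus strand, and Bcl2l2 (ENSMUSG00000089682) spans 54883377 to 54888234 of chromosome 14, plus strand. Mcl1 (ENSMUSG00000038612) lies at 95658788 to 95663176 of chromosome 3, plus strand. Bax (ENSMUSG00000003873) lies at 45461697 to 45466898 of chromosome 7 and Bak1 (ENSMUSG00000057789) at 27019810 to 27029009 of chromosome 17, both on the minus strand. All 6 are protein-coding. Exons of other counted genes cover 6.09% of the exonic bases of Bcl2, 13.3% of those of Bcl2l2 and 18.2% of those of Bak1, and none of Bcl2l1, Mcl1 or Bax.

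The 250 bases before the annotated start are shown for 3 members, from RefSeq on GRCm38.p6, the assembly behind mm10. Bcl2 and Mcl1 are shown because they were the members that passed the test below, and Bax because its window holds the sequence CACGTG, the E-box that MYC and MAX bind, in this MYC-driven lymphoma. Capitals mark the E-box. The windows are chr1:106714291-106714540 for Bcl2 (minus strand), chr3:95658471-95658720 for Mcl1 (plus strand) and chr7:45466899-45467148 for Bax (minus strand).
Bcl2: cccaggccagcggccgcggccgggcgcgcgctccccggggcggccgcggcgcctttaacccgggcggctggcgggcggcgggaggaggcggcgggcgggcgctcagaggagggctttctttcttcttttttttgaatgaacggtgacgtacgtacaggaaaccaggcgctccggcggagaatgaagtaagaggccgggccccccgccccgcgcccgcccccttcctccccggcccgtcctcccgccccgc
Mcl1: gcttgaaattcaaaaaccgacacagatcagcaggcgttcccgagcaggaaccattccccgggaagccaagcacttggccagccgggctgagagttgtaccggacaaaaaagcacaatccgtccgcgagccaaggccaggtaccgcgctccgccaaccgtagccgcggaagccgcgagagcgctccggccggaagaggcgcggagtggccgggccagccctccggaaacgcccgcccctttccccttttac
Bax: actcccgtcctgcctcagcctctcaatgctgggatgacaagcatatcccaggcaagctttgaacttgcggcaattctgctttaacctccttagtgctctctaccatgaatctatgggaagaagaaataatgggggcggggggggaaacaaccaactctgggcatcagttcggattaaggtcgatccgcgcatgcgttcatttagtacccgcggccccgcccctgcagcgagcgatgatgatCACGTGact
CACGTG reads the same on both strands. It occurred in 1 of the 8 windows of the 6 members, that of Bax, where it begins 9 bases before the start, and in 6.02% of all 32851 windows of that length. The window of Bcl2 was the richest in G and C among the members, at 74.8%, against 64.4% for Mcl1, 54.0% for Bax and a median of 52.4% over all windows. The match is a description of the sequence, since no binding was measured here.

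Bcl2 was the only member whose fall passed the test, and it passed after both compounds. It lay at 129, 107 and 122 CPM under DMSO, at 92.6, 84.3 and 82.1 CPM under JQ1 and at 86.0, 85.5 and 87.5 CPM under RG6146. Every treated library was below every DMSO library. The means were 119 ± 11.2 CPM (SD, n = 3) under DMSO, 86.3 ± 5.55 CPM under JQ1 and 86.3 ± 1.02 CPM under RG6146. The log2 fold change was -0.47 ± 0.09 (SE) after JQ1, a level 0.722 times that of DMSO with a 95% interval of 0.635 to 0.821 (edgeR quasi-likelihood test, adjusted p = 6.2e-04). After RG6146 it was also -0.47 ± 0.09 (adjusted p = 6.8e-04). Both comparisons use the same DMSO libraries. In these bulk samples, fewer cells that express a gene and less RNA per cell cannot be told apart.

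Larger falls than that of Bcl2 were common, since 18.4% of tested genes, called or not, had a lower log2 fold change after JQ1 and 17.0% after RG6146. Over all 11002 tested genes, 28.9% were called after JQ1 and 26.0% after RG6146, where a call means a Benjamini-Hochberg adjusted p below 0.05. By direction, 13.6% of genes rose and 15.4% fell after JQ1, and 12.5% rose and 13.5% fell after RG6146. Of the 5 tested members, 1 rose and 1 fell after JQ1, and 0 rose and 1 fell after RG6146. Treated and DMSO libraries did not overlap for 2 members after JQ1 and 3 after RG6146, against 42.6% and 40.9% of all tested genes. These shares are near the background, so the calls do not set the members apart from other genes. The median log2 fold change of the 5 members was -0.12 after JQ1 and -0.17 after RG6146, against 0.00 and 0.01 over all tested genes. Scaling by the ERCC spike-ins, synthetic RNAs of known amount, ended the calls of Bcl2 (-0.48, adjusted p = 0.199, and -0.43, adjusted p = 0.294), while ERCC scaling with the replicate number as a block kept both (-0.49, adjusted p = 0.00130, and -0.44, adjusted p = 0.00348). Neither fall passed when tested for exceeding 1.5-fold (adjusted p = 1.00 for both). At 0.722 times the DMSO level, both falls were smaller than that and could not pass. The DMSO library with the highest myeloid sum, replicate 2, had the lowest Bcl2 level of its group. Without it the log2 fold change of Bcl2 was -0.54 after each compound (adjusted p = 5.1e-04 and 5.9e-04). Leaving out a low DMSO library enlarges a fall in any case, so the part of the myeloid cells was not tested. Across the fits that each left out 1 library, the log2 fold change was -0.54 to -0.41 after each compound (highest edgeR adjusted p = 0.00574 and 0.00497). The B cell sum moved with Bcl2, from 631 to 714 CPM under DMSO to 375 to 387 CPM under JQ1 and 380 to 422 CPM under RG6146, and its part in the result was not tested.

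**Figure D1:**
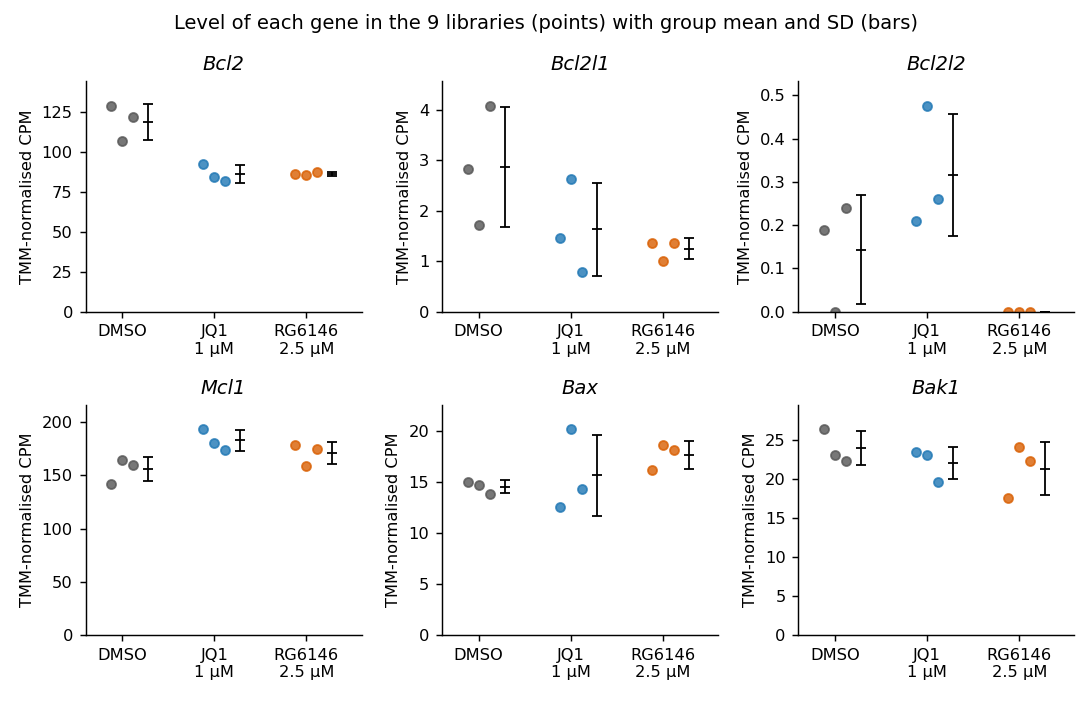
TMM-normalised CPM (vertical axis, starting at 0) of each gene in the 3 libraries of each group (points), with the group mean and SD (black bars), on a separate scale per gene. Treated Bcl2 libraries sit between 82.1 and 92.6 CPM, below the DMSO libraries at 107 to 129 CPM, while groups of Bak1 overlap and Bcl2l2 stays under 0.5 CPM.

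Mcl1 was the most abundant member. It lay at 142, 164 and 160 CPM under DMSO, at 193, 180 and 174 CPM under JQ1 and at 178, 159 and 175 CPM under RG6146. All JQ1 libraries were above all DMSO libraries, while the lowest RG6146 library was within the DMSO range. After JQ1 it rose by 0.23 ± 0.08 on the log2 scale, 1.17-fold with an interval of 1.04 to 1.32 (adjusted p = 0.0414). After RG6146 the log2 fold change was 0.14 ± 0.08 and did not pass (adjusted p = 0.245).

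The call of Mcl1 after JQ1 was close to the threshold and ended under 15 of the 21 alternatives tried, with an adjusted p between 0.0548 and 1.00 there. Library size scaling, which moved the median of all genes from 0.00 to -0.13, gave 0.10 (adjusted p = 0.386). The value without DMSO replicate 1 was 0.17 (adjusted p = 0.170), without DMSO replicate 3 0.26 (0.0577), without JQ1 replicate 1 0.19 (0.159), without JQ1 replicate 2 0.25 (0.0561) and without JQ1 replicate 3 0.27 (0.0550). The log2 fold change stayed above 0 in all 21, at 0.10 to 0.27.

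Bcl2l1, which encodes BCL-XL, was a scarce transcript. Its counts were 15, 6 and 17 under DMSO, 7, 11 and 3 under JQ1 and 6, 4 and 6 under RG6146, or 2.82, 1.71 and 4.08 CPM, then 1.47, 2.62 and 0.784 CPM, then 1.37, 1.01 and 1.36 CPM. The JQ1 libraries overlap those of DMSO and the RG6146 libraries lie below them. The log2 fold change was -0.82 ± 0.48 after JQ1 (adjusted p = 0.215) and -1.21 ± 0.50 after RG6146 (adjusted p = 0.0860), neither of which passed. The 95% interval after RG6146 ran from -2.27 to -0.16. At counts of 3 to 17 a library, the intervals of Bcl2l1 were the widest among the members.

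Bcl2l2, which encodes BCL-W, had 1, 0 and 1 counts under DMSO, 1, 2 and 1 under JQ1 and 0 in each RG6146 library. A count of 0 allows up to 3 counts, which is 0.682 to 0.759 CPM in the RG6146 libraries, so all groups were at or under that limit and no fold is given. The read-through gene Gm20521, which joins Bcl2l2 to Pabpn1, shares 594 exonic bases with Bcl2l2. The 2 full-length Bcl2l2 transcripts, which end at 54888234 and 54888095, share none of their last 500 bases with another counted gene. Gm20521 and Pabpn1 had nearly the same counts in each library, for example 1422 and 1530 in DMSO replicate 1, so their reads may not be separated, and neither is a measure of Bcl2l2.

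The effector genes showed no change that passed the test. Bax, which moves from the cytosol to mitochondria when active, lay at 15.0, 14.8 and 13.9 CPM under DMSO. It was at 12.6, 20.2 and 14.4 CPM under JQ1 and at 16.2, 18.7 and 18.2 CPM under RG6146. The JQ1 libraries lie on both sides of the DMSO libraries, and the RG6146 libraries lie above them. The log2 fold change was 0.11 ± 0.18 after JQ1 (adjusted p = 0.695), which turned to -0.11 without JQ1 replicate 2 and to -0.03 with library size scaling, and 0.28 ± 0.17 after RG6146 (adjusted p = 0.265).

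Bak1, whose product sits in the outer mitochondrial membrane, lay at 26.3, 23.0 and 22.3 CPM under DMSO, at 23.4, 23.1 and 19.6 CPM under JQ1 and at 17.6, 24.0 and 22.3 CPM under RG6146. The 3 groups overlap. Its log2 fold change was -0.12 ± 0.15 after JQ1 (adjusted p = 0.588) and -0.17 ± 0.15 after RG6146 (adjusted p = 0.421). The 95% intervals of Bax reached 1.39-fold higher after JQ1 and 1.56-fold higher after RG6146, and those of Bak1 reached down to 0.745 and 0.718 times the DMSO level, so changes of those sizes are within the error. Part of Bak1 overlaps Ggnbp1 on the opposite strand, and the last 500 bases of its 3 longest transcripts share nothing with another counted gene.

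**Figure D2:**
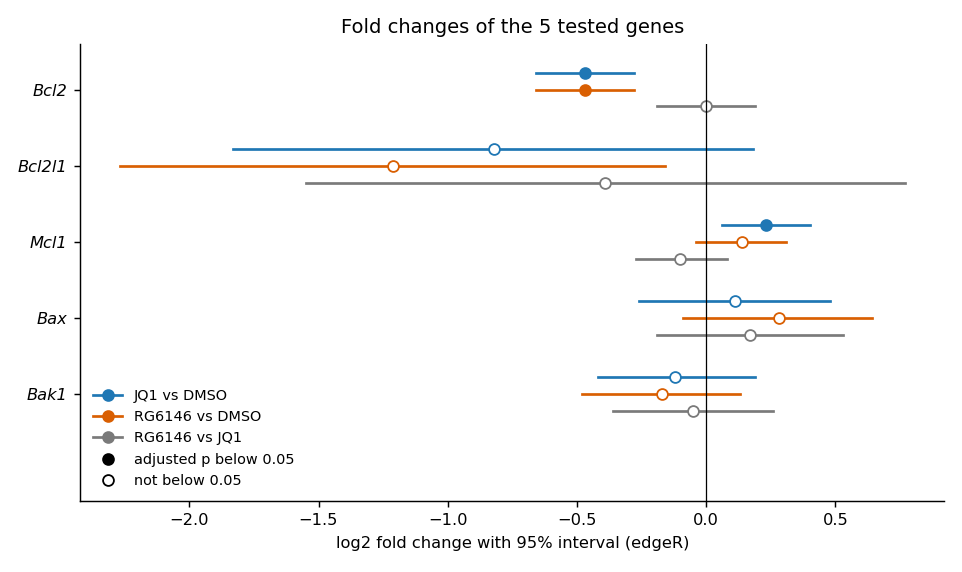
log2 fold change (horizontal axis) with its 95% interval for the 5 tested genes in the 3 comparisons; filled points have an adjusted p below 0.05 and open points do not. Bcl2 sits at -0.47 for both compounds, Mcl1 at 0.23 and 0.14, and the intervals of Bcl2l1 are the widest.

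In DMSO-treated cells the order of levels was Mcl1 (156 ± 11.5 CPM, SD, n = 3), Bcl2 (119), Bak1 (23.9 ± 2.15 CPM), Bax (14.6 ± 0.598 CPM), Bcl2l1 (2.87 ± 1.19 CPM) and Bcl2l2 (0.143 CPM). No neighbours in that order overlapped over the 3 libraries. Under JQ1 and under RG6146 the ranges of Bak1 and Bax overlapped, and the order of the other members was the same. Mcl1 stood above 91.6% and Bcl2 above 88.6% of tested genes under DMSO, Bak1 above 54.4%, Bax above 41.5% and Bcl2l1 above 6.85%. The 4 survival genes summed to 278 ± 7.63 CPM under DMSO, 271 ± 15.4 CPM under JQ1 and 258 ± 11.0 CPM under RG6146, and Bax and Bak1 to 38.5 ± 2.65, 37.8 ± 4.91 and 39.0 ± 4.68 CPM.

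Among the reads of survival genes, treated libraries held more from Mcl1 and fewer from Bcl2 than DMSO libraries did. Mcl1 made up 51.8% of the reads of the 4 survival genes in DMSO replicate 1 (Wilson 95% interval 49.3% to 54.4%), 60.1% in replicate 2 (56.9% to 63.1%) and 55.9% in replicate 3 (53.1% to 58.7%). It made up 67.2%, 67.3% and 67.7% in the JQ1 libraries and 67.1%, 64.8% and 66.4% in the RG6146 libraries, all above the DMSO libraries. The intervals cover counting error only. Bcl2 made up 47.1%, 39.3% and 42.6% under DMSO, 32.2%, 31.5% and 31.9% under JQ1 and 32.4%, 34.8% and 33.1% under RG6146. These shares do not depend on how the libraries are scaled, and they restate the levels of Bcl2 and Mcl1 above rather than add to them. Bcl2 and Mcl1 hold nearly all of these reads, so a fall of Bcl2 alone raises the share of Mcl1. After RG6146 the level of Mcl1 itself did not pass the test.

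Ratios of 2 genes within a library, which need no scaling either, are given as a description. The count of Mcl1 over that of Bcl2 had a mean log2 ratio of 0.38 ± 0.24 (SD, n = 3) under DMSO, 1.08 ± 0.02 under JQ1 and 0.98 ± 0.08 under RG6146, or 1.30, 2.12 and 1.98 Mcl1 reads per Bcl2 read. Bax over Bcl2 was -3.03 ± 0.15 under DMSO, -2.48 ± 0.41 under JQ1 and -2.29 ± 0.11 under RG6146. The highest DMSO library (-2.86) lay just above the lowest JQ1 library (-2.87) and below every RG6146 library. Bak1 over Bcl2 was -2.32 ± 0.12, -1.97 ± 0.10 and -2.03 ± 0.24, and its lowest RG6146 library (-2.29) was within the DMSO range. Bcl2l11 encodes BIM, a BH3-only protein that binds all the survival proteins. Its log2 ratio to Bcl2 was -1.59 ± 0.09 under DMSO, 0.81 ± 0.12 under JQ1 and 0.78 ± 0.02 under RG6146, from 0.331 to 1.76 and 1.71 reads per Bcl2 read.

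**Figure D3:**
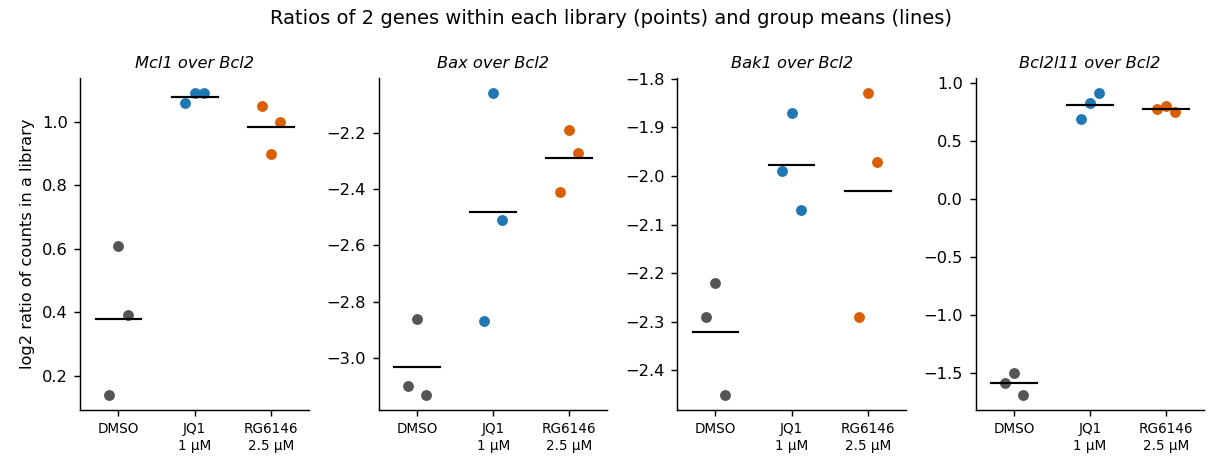
log2 ratio of the counts of 2 genes within each library (points, vertical axis on a separate scale per panel) with group means (lines). Mcl1 over Bcl2 and Bcl2l11 over Bcl2 are higher in all 6 treated libraries than in the 3 DMSO libraries, while Bax over Bcl2 overlaps for JQ1 and Bak1 over Bcl2 for RG6146.

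RG6146 and JQ1 were also compared directly, at their different doses. None of the 5 tested members was called, where the edgeR test called 1 gene, or 0.00909% of all tested genes, and 427 genes (3.88%) had an unadjusted p below 0.05. Libraries of the 2 compounds overlapped for all 5 members, while they did not for 9.93% of all tested genes. DESeq2 called 1 gene and limma-voom 0. The interval of the log2 difference, RG6146 minus JQ1, was -0.19 to 0.19 for Bcl2, -0.27 to 0.08 for Mcl1, -0.19 to 0.53 for Bax, -0.36 to 0.26 for Bak1 and -1.55 to 0.77 for Bcl2l1. Differences within those limits cannot be seen with these libraries.

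Genes with a pattern over the 9 libraries most like that of a called member were found among 7407 tested genes that averaged 10 CPM or more. The measure was the root mean square difference of log2 CPM, each gene centred on its own mean. Closest to Bcl2 were Ctss, the protease cathepsin S (0.0354, log2 fold changes -0.44 and -0.43 after JQ1 and RG6146), Mrpl50, a mitochondrial ribosomal protein gene (0.0673), and Xpo4, a nuclear exportin gene (0.0763), where the median gene was at 0.304. Closest to Mcl1 were the chromatin remodelling gene Smarcd2 (0.0457), Edf1 (0.0505) and Birc5, which encodes survivin (0.0525), against a median of 0.218.

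Among the BH3-only genes, whose products the survival proteins bind, Bcl2l11 rose and Bmf fell after each compound. Of 8 such genes 6 were tested, and the 4 besides Bcl2l11 and Bmf did not pass, where over all tested genes 28.9% were called after JQ1 and 26.0% after RG6146. The 6 genes had a median log2 fold change of 0.06 after JQ1 and 0.07 after RG6146 against 0.00 and 0.01 over all tested genes. Bcl2l11 went from 42.9, 37.8 and 37.9 CPM under DMSO to 149, 150 and 155 CPM under JQ1 and 148, 149 and 147 CPM under RG6146, a rise of 1.93 ± 0.08 and 1.90 ± 0.08 on the log2 scale (adjusted p = 3.2e-11 and 4.2e-11). Bmf, whose protein binds BCL2 and MCL1, fell from 6.39, 9.67 and 5.99 CPM to 3.16, 3.09 and 2.09 CPM under JQ1 and 2.28, 2.02 and 2.04 CPM under RG6146, log2 fold changes of -1.37 ± 0.31 and -1.78 ± 0.32 (adjusted p = 0.00270 and 5.2e-04). Treated and DMSO libraries did not overlap for either gene.

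The other BH3-only genes did not pass. Pmaip1, which encodes NOXA, a partner of MCL1, had 0.34 ± 0.19 after JQ1 and 0.48 ± 0.19 after RG6146 (adjusted p = 0.205 and 0.0746). Bbc3 (PUMA) had 0.08 ± 0.17 and 0.10 ± 0.17, Bid had 0.05 ± 0.11 and 0.04 ± 0.11, and Bad had -0.04 ± 0.16 and -0.13 ± 0.16, with adjusted p-values of 0.588 to 0.879. Bik and Hrk had at most 1 count in any library and were not tested.

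Downstream of the mitochondrion, 12 of 13 genes were tested, of which 4 rose and 3 fell after JQ1 and 3 rose and 3 fell after RG6146, with medians of -0.00 and 0.07. Over all tested genes, 13.6% rose and 15.4% fell after JQ1, and 12.5% and 13.5% after RG6146. Xiap, the inhibitor of caspases 9, 3 and 7, fell from 80.1, 71.9 and 67.4 CPM under DMSO to 50.3, 42.8 and 52.5 CPM under JQ1 and 52.0, 48.8 and 54.5 CPM under RG6146 (-0.59 ± 0.11 and -0.50 ± 0.10, adjusted p = 3.7e-04 and 0.00175). Diablo encodes SMAC, which leaves mitochondria and binds XIAP, and it rose by 0.45 ± 0.11 and 0.48 ± 0.11 (adjusted p = 0.00598 and 0.00418). Apaf1, the scaffold of the apoptosome, rose by 0.39 ± 0.14 and 0.50 ± 0.14 (adjusted p = 0.0429 and 0.0121). Endog, a mitochondrial nuclease gene, rose after JQ1 by 0.54 ± 0.15 (adjusted p = 0.0120), and after RG6146 it had 0.36 ± 0.15 (adjusted p = 0.0946). The call of Apaf1 after JQ1 ended without any 1 of the DMSO or JQ1 libraries (adjusted p = 0.0642 to 0.102) and with DESeq2 (0.171), that after RG6146 without RG6146 replicate 1 (0.0934) and with DESeq2 (0.0703), and that of Endog without JQ1 replicate 1 (0.0688). Leaving out 1 library in turn, 1 to 4 genes of the list rose and 1 to 3 fell after JQ1, and 2 to 3 rose and 1 to 3 fell after RG6146.

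All 20 genes of partners and membrane sites of the family were tested, and 5 rose and 1 fell after JQ1, and 6 rose and 0 fell after RG6146. Their medians were 0.19 and 0.20, against 0.00 and 0.01 over all tested genes, of which 13.6% rose and 15.4% fell after JQ1 and 12.5% rose and 13.5% fell after RG6146. Itpr1, an endoplasmic reticulum calcium channel that BCL2 binds, rose by 0.81 ± 0.17 and 0.72 ± 0.17 (adjusted p = 0.00159 and 0.00452). Becn1, an autophagy gene whose protein holds a BH3 stretch, rose by 0.33 ± 0.08 and 0.25 ± 0.08, and Bag1, a cochaperone first found as a BCL2 partner, rose by 0.36 ± 0.09 and 0.31 ± 0.09 (highest adjusted p of these 4 values 0.0197). Mtch2, a mitochondrial receptor of BID, rose by 0.33 ± 0.08 after JQ1 (adjusted p = 0.00548) and had 0.20 ± 0.08 after RG6146 (adjusted p = 0.0834). With library size scaling 1 gene of the list rose after each compound, and Becn1, Bag1 and Mtch2 were not called. Without RG6146 replicate 1 or replicate 2, 2 genes of the list rose after RG6146, and Bag1 was not called (adjusted p = 0.0585 and 0.0590).

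Genes for the turnover of the MCL1 protein were tested in full, and of these 8 genes 3 rose and 1 fell after JQ1 and 4 rose and 1 fell after RG6146, with medians of 0.11 and 0.17. Of all tested genes, 28.9% were called after JQ1 and 26.0% after RG6146. The fall was Btrc, a subunit of a ubiquitin ligase that marks MCL1, which went from 17.5, 18.8 and 13.7 CPM to 7.16, 6.66 and 6.54 CPM under JQ1 and 8.89, 7.09 and 8.63 CPM under RG6146 (-1.29 ± 0.19 and -1.02 ± 0.19, adjusted p = 6.3e-05 and 5.3e-04). The kinase gene Gsk3b, whose product phosphorylates MCL1, rose from 94.8, 117 and 106 CPM to 194, 163 and 177 CPM and to 162, 139 and 186 CPM (0.75 ± 0.11 and 0.62 ± 0.11, adjusted p = 7.3e-05 and 4.8e-04). Fbxw7, another ligase subunit for MCL1, rose by 0.34 ± 0.09 and 0.46 ± 0.09, and Usp9x, which removes ubiquitin from MCL1, rose by 0.45 ± 0.09 and 0.38 ± 0.09 (highest adjusted p 0.00598). The rises of this list therefore include genes whose products destabilise MCL1 and one whose product stabilises it.

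With scaling by ERCC, Bcl2l11, Bmf and Btrc kept their calls after both compounds, and Itpr1 and Gsk3b after JQ1 but not after RG6146 (adjusted p = 0.0591 and 0.0582). The calls of Xiap, Diablo, Apaf1, Endog, Becn1, Bag1, Mtch2, Fbxw7 and Usp9x ended, with adjusted p-values from 0.108 for Xiap after JQ1 to 0.577 for Becn1 after RG6146. With the replicate number as a block beside ERCC scaling these calls held, except that of Apaf1 after JQ1 (adjusted p = 0.0785), and Itpr1 and Gsk3b were called after RG6146 too (adjusted p = 0.00399 and 0.00113).

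**Figure D4:**
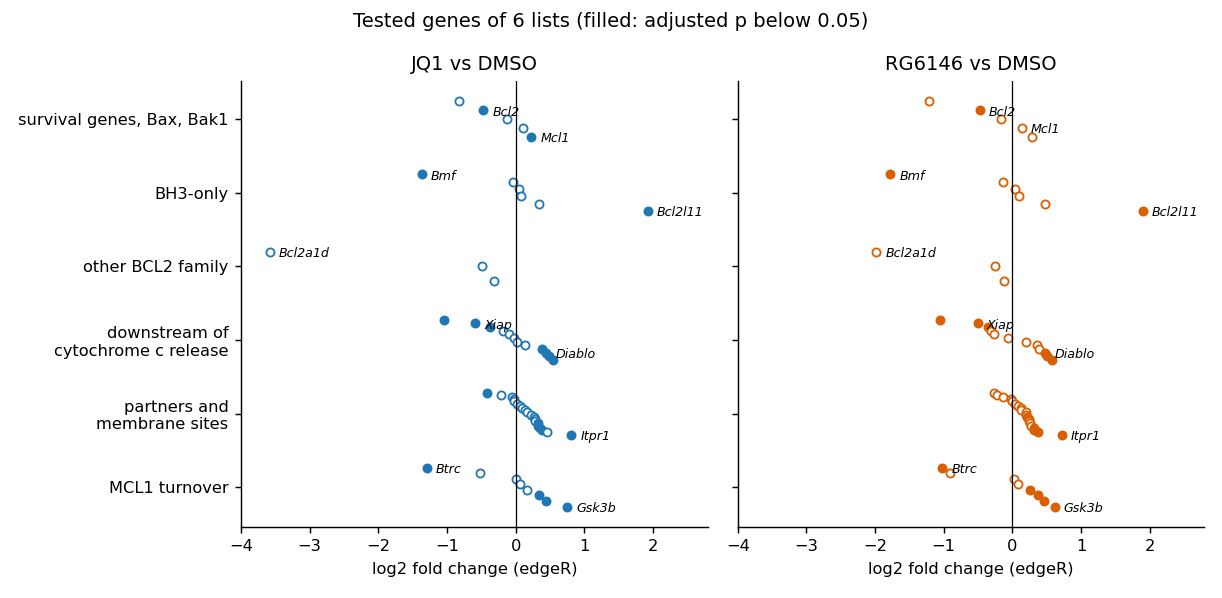
log2 fold change (horizontal axis) of each tested gene of 6 lists against DMSO, for JQ1 (left) and RG6146 (right); filled points have an adjusted p below 0.05 and open points do not, and genes within a list are spread vertically by rank. Bcl2l11 at 1.93 and 1.90 and Bmf at -1.37 and -1.78 are the called genes farthest from 0 among these lists, while Bcl2 and Mcl1 lie within 0.5 of 0.

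**Figure D5:**
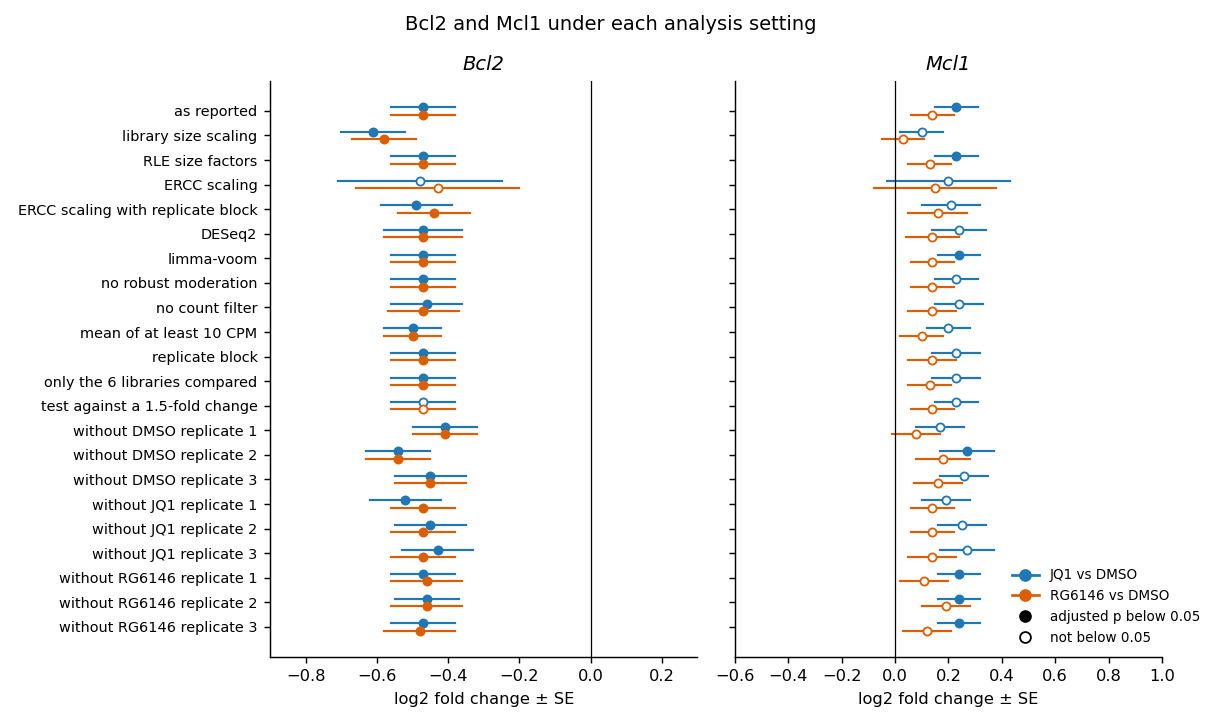
log2 fold change ± SE (horizontal axis) of Bcl2 (left) and Mcl1 (right) against DMSO as reported (top) and under 21 alternatives; filled points have an adjusted p below 0.05 and open points do not. Bcl2 loses its calls with ERCC scaling alone and when tested for exceeding 1.5-fold, and Mcl1 after JQ1 keeps its call under 6 of the 21.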

How the data were processed

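3′ mRNA libraries were made with the QuantSeq kit from 500 ng of RNA and sequenced as single-end reads of 75 bases, per the labels' protocols. The authors deposited unnormalised read counts, 1 row a gene. The submitters' processing notes name HISAT2 2.1.0 and cutadapt 1.7, build mm10, featureCounts, FastQC 0.11.5 and bcl2fastq 2.17.1.14. Neither the annotation release nor the strand setting is given in those notes or the labels. Symbols and positions came from GENCODE M21, which matched 42548 of 43629 gene rows.

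The 92 ERCC rows (0.958% to 1.51% of counts) entered neither library sizes nor tests. In R 4.3.3, edgeR 4.0.16 fitted a robust quasi-likelihood model with TMM to all 9 libraries after filterByExpr with a minimum count of 10, with the group as its only term. p-values were adjusted over all tested genes by Benjamini-Hochberg. Fold changes carry no prior count, and intervals use the test's degrees of freedom. p-values measure the spread between cultures of 1 clone. Replicates differed by more than sampling noise (chi-square per degree of freedom 6.87 to 17.0). The fit was also run on simulated counts with the same spread set for every gene. That run does not cover genes that vary more between replicates. DESeq2 1.42.0, limma 3.58.1 and other settings were tried as alternatives.

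The members, lists and tests were chosen with earlier results of these data known. Named were the 6 members, the 8 BH3-only genes, Hexim1, up to 4 genes with the smallest p of each other list, and the 3 genes most like a called member. Further genes were named after their values were seen, where they overlap a member (Gm20521, Pabpn1, Ggnbp1, D630008O14Rik) or are copies of Bcl2a1d (Bcl2a1a, Bcl2a1b).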

Additional observations from a re-analysis of the deposited data

How the results depend on the processing

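Bcl2 kept its direction and its calls under 19 of 21 alternatives after each compound, at -0.61 to -0.41 on the log2 scale. With ERCC scaling it had -0.48 and -0.43, and when tested for exceeding 1.5-fold -0.47 for both, without a call. Changes smaller than 1.5-fold, such as those of Bcl2 and Mcl1, cannot pass that test. The calls of Mcl1 after JQ1 ended with library size scaling (0.10), ERCC scaling (0.20, or 0.21 with the replicate block), DESeq2 (0.24), no robust moderation (0.23), no count filter (0.24), a mean of at least 10 CPM (0.20), the replicate block (0.23), only the 6 libraries compared (0.23) and testing for more than 1.5-fold (0.23), and without single libraries at 0.17 to 0.27. Without a single library, the direct log2 difference of RG6146 minus JQ1 spanned -0.03 to 0.05 for Bcl2, -0.15 to 0.07 for Bak1 and -0.69 to 0.11 for Bcl2l1. Library size and ERCC scaling gave 0.03 and 0.05 for Bcl2, with 0.05 in the ERCC fit with the replicate block and 0.00 with the block alone or a mean of at least 10 CPM, and ERCC scaling gave 0.02 for Bak1. No value there was called, and the causes were not tested.

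Against DMSO, library size scaling turned Bax (-0.03), Bbc3 (-0.05) and Bid (-0.09) after JQ1 and Bbc3 (-0.01) and Bid (-0.07) after RG6146. Leaving out 1 library gave values of both signs, from -0.11 to 0.25 for Bax, -0.03 to 0.26 for Bbc3 and -0.11 to 0.11 for Bad after JQ1. After RG6146 the values ran from -0.02 to 0.28 for Bbc3, -0.02 to 0.12 for Bid and -0.21 to 0.01 for Bad, all without a call.

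ERCC scaling called 1196 genes after JQ1, 1082 after RG6146 and 4 between the compounds (2829, 2604 and 1 with the replicate block added), and testing for more than 1.5-fold called 599, 532 and 0. Of the called genes, 47.0% rose after JQ1 and 48.0% after RG6146, against 27.2% and 29.7% with library size scaling. Between the compounds, limma-voom, no robust moderation, a mean of at least 10 CPM, the replicate block and only the 6 libraries compared called 0 genes, no count filter 17, and leaving out 1 library 0 to 2. Over the 5 lists, rises after JQ1 and RG6146 numbered 6 and 7 with library size scaling, 3 and 1 with ERCC scaling (11 and 13 with the block added) and 1 and 1 against a 1.5-fold change, with 8 after RG6146 by DESeq2. Falls numbered 2 and 2 with ERCC scaling, 2 and 1 against a 1.5-fold change, and after RG6146 8 with library size scaling and 3 each without robust moderation, in the replicate block fit, and when that fit also had ERCC scaling. Without 1 library the rises lay at 11 to 14 after JQ1 and 8 to 15 after RG6146, and the falls at 3 to 8 and 3 to 6.

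Gene levels did not show the replicate numbers to pair the libraries: same-numbered libraries of 2 groups had correlations of -0.135 to 0.138 over 7411 genes, and 3 of 9 correlated best with their own number. The ERCC share did go with the number, at 1.35% to 1.51% in the libraries numbered 1, 1.17% to 1.22% in those numbered 2 and 0.958% to 1.13% in those numbered 3. The replicate block called 3092 genes after JQ1 and 2789 after RG6146. Depth limits Bcl2l1 and Bcl2l2 most, at up to 17 and 2 counts.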

Other observations

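The Bcl2a1 genes encode A1, a further survival protein of lymphoid and myeloid cells. They are near-identical copies, so the counts of a single copy are uncertain. Bcl2a1b had 50, 6 and 53 counts under DMSO, 4, 1 and 0 under JQ1 and 1, 4 and 5 under RG6146. Bcl2a1d lay at 6.77, 0.853 and 11.5 CPM under DMSO, 0.631, 0.952 and 0 CPM under JQ1 and 0, 1.77 and 3.18 CPM under RG6146, and Bcl2a1a at 4.89, 0.284 and 0.959 CPM under DMSO and under 0.8 CPM in every treated library. DMSO replicate 2 was the low one of its group for all 3 copies, and it had the highest sum of myeloid markers, 763 CPM against 161 and 354 CPM. Of the 3 copies only Bcl2a1d passed the count filter, and it did not pass the test after JQ1 (-3.58 ± 1.32, adjusted p = 0.0902, edgeR) or RG6146 (-1.98 ± 1.07, adjusted p = 0.237). Without DMSO replicate 2 it passed after JQ1 (-4.05 ± 0.96, adjusted p = 0.0191), as it did without RG6146 replicate 1 (adjusted p = 0.0487) and with no robust moderation (adjusted p = 0.0367). The fit without DMSO replicate 2 kept only DMSO libraries with high Bcl2a1d, so that call is not separate evidence of a fall. Bcl2a1b was tested only under other settings, where DESeq2 called it lower after JQ1 (-4.38 ± 0.94, adjusted p = 6.0e-05) and RG6146 (-3.34 ± 0.82, adjusted p = 7.3e-04). It was also called with no count filter, as was Bcl2a1a. Among edgeR fits without a single library, it passed the count filter only where DMSO replicates 1 and 3, its high libraries, were both kept. It was called in 7 of 7 such fits after JQ1 and 5 of 7 after RG6146. The exceptions were without RG6146 replicate 1 (adjusted p = 0.0629) and replicate 2 (0.0613). Because the gene entered these fits through its high DMSO libraries, and the fits share libraries, these calls are not separate evidence of a fall.

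Of the other family genes, Bcl2l12 (-0.49 ± 0.26 and -0.25 ± 0.25) and Bcl2l13 (-0.32 ± 0.18 and -0.12 ± 0.17) did not pass after JQ1 or RG6146 (edgeR adjusted p = 0.171 to 0.652), except that Bcl2l12 passed after JQ1 without JQ1 replicate 3 (-0.81 ± 0.26, adjusted p = 0.0351). Bok and Bcl2l10 had 0 counts in all 9 libraries, which allows up to 3 counts in each, and Bcl2l14 and Bcl2l15 had at most 2 and 1. The antisense gene D630008O14Rik, which overlaps Bcl2, had 18 to 45 counts a library against 314 to 687 for Bcl2, and its log2 fold changes of -0.46 ± 0.33 after JQ1 and 0.13 ± 0.31 after RG6146 did not pass (edgeR adjusted p = 0.328 and 0.815).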
